A study of Mus musculus with 7 samples.

Results

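The SoxF transcription factors *Sox7*, *Sox17* and *Sox18* were followed in whole colon tumors of 7 mice. The 3 genes were the rows of the deposited count table whose Ensembl identifiers map to those symbols, of 43346 genes listed, and all 3 were among the 15810 genes with enough counts to be tested. They were chosen by their measured counts in the same tumors, with the difference in *Sox17* between the groups already known, so the group differences of the 3 genes are given as a description. The question was whether *Sox17* followed *Sox7* and *Sox18*, as genes of blood vessels, or rose apart from them.

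SoxF proteins carry a high mobility group (HMG) box, which binds and bends DNA, and a carboxy-terminal region that activates transcription. In endothelial cells, which line vessels, they act downstream of VEGF and Wnt signals and share many targets. *Sox17* is best known in arterial endothelium and *Sox18* in the onset of lymphatic vessels, where it activates *Prox1*. Outside vessels, *Sox17* is a regulator of the definitive endoderm, from which gut epithelium arises, and both *Sox17* and *Sox7* proteins can bind β-catenin, the effector of Wnt signaling.

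Tumors came from wild-type mice, C57BL6/J by their labels and a congenic CD45.1 strain in the study's methods, that had received bone marrow (BM) after lethal irradiation, from *Dnmt3a*+/Δ donors (4 tumors; written Dnmt3a(+/-) in the labels) or from *Dnmt3a*+/+ donors (3 tumors). Donors of both genotypes carried Mx1-Cre, an interferon-inducible recombinase, and were given poly(I:C) to switch it on, so the deletion sat in the graft and its blood cell progeny while host epithelium and vessels were wild type. Recipients, labelled as 8 weeks old, were injected once with azoxymethane (10 mg/kg) and then drank 3% dextran sulfate sodium in 3 cycles, the colitis-associated cancer (CAC) model. The sample names begin with BMT18 for replicates 1 and 2 of each group. They begin with BMT8 for *Dnmt3a*+/+ replicate 3 and *Dnmt3a*+/Δ replicates 3 and 4. These prefixes were taken here as 2 transplantation experiments, which is a reading of the names.

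Total counts ranged from 38472738 to 64314999 per tumor. *Dnmt3a* itself was at 22.5 ± 2.06 CPM (counts scaled to TMM library size; SD, n = 3) with *Dnmt3a*+/+ BM and 30.3 ± 8.94 (n = 4) with *Dnmt3a*+/Δ BM, which does not check the graft's genotype, because a tumor also holds host cells. The 9 colon epithelium markers summed to between 9014 and 31300 CPM in every tumor. Markers of other cells differed among the tumors. In *Dnmt3a*+/+ replicate 3, the smooth muscle genes summed to 22.57 CPM, against 243.1 to 1167 CPM in the other 6 tumors. In *Dnmt3a*+/Δ replicate 2, *Krt5*, the basal keratin of stratified squamous epithelium, was at 0.0815 CPM, against 927.4 to 5963 CPM in the other 6 tumors. That tumor also had the highest summed pan-endothelial (392.5 CPM) and leukocyte (480.0 CPM) markers. A list of squamous genes, chosen after the values were seen, summed to 27130 CPM in *Dnmt3a*+/+ replicate 1 and 29050 CPM in *Dnmt3a*+/Δ replicate 1. In the rest it summed to between 335.2 and 5993 CPM. The SoxF values and the list medians are given with and without *Dnmt3a*+/Δ replicate 2.

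The 3 genes are separate loci. On GRCm38, *Sox7* lies at chr14:63943673-63950732 (plus strand), *Sox17* at chr1:4490931-4497354 (minus strand) and *Sox18* at chr2:181669836-181671640 (minus strand). The *Sox17* locus also overlaps *Gm37587*, a transcript on the opposite strand. *Gm37587* had 50 counts in *Dnmt3a*+/Δ replicate 2, 3 and 1 in replicates 3 and 4, and 0 in the remaining tumors, against 5112 counts for *Sox17* in replicate 2. The library kit marks strand, and the strand setting of the counting is not given in the sources used here.

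*Sox17* was low in every tumor with *Dnmt3a*+/+ BM and higher in every tumor with *Dnmt3a*+/Δ BM. It was at 0.511, 0.812 and 1.10 CPM across *Dnmt3a*+/+ replicates 1 to 3, against 1.92, 104.1, 12.3 and 8.76 CPM across *Dnmt3a*+/Δ replicates 1 to 4. The groups did not overlap, as was the case in this direction for 6.12% of genes tested. The means were 0.808 ± 0.295 (SD, n = 3) and 31.8 ± 48.4 CPM (n = 4), so the SD of the second group exceeded its mean. Without *Dnmt3a*+/Δ replicate 2 that mean was 7.67 ± 5.29 CPM (n = 3). The log2 fold change was 5.30 (SE 1.44), or 3.28 without replicate 2, and 0.0316% of genes tested, *Sox17* among them, had a log2 fold change as large.

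*Sox18* was also higher with *Dnmt3a*+/Δ BM, by a smaller factor and with 1 pair of tumors out of order. With *Dnmt3a*+/+ BM, replicates 1 to 3 had 1.37, 0.640 and 3.52 CPM. With *Dnmt3a*+/Δ BM, replicates 1 to 4 had 3.12, 13.4, 5.91 and 6.30 CPM. The groups overlapped only because *Dnmt3a*+/+ replicate 3 lay above *Dnmt3a*+/Δ replicate 1. The means were 1.84 ± 1.50 (n = 3) and 7.19 ± 4.39 CPM (n = 4), with a log2 fold change of 1.97 (SE 0.71), or 1.51 without *Dnmt3a*+/Δ replicate 2, and 1.99% of genes tested had one as large. The log2 fold change was 2.85 without *Dnmt3a*+/+ replicate 3 and 3.07 in BMT18 alone. BMT8 holds 1 *Dnmt3a*+/+ tumor and was not fitted alone.

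*Sox7* did not separate the groups. It was at 6.29, 1.98 and 2.66 CPM across *Dnmt3a*+/+ replicates 1 to 3, against 13.7, 1.71, 3.43 and 3.46 CPM across *Dnmt3a*+/Δ replicates 1 to 4. The highest value was in *Dnmt3a*+/Δ replicate 1 and the lowest in *Dnmt3a*+/Δ replicate 2, the tumor where *Sox17* and *Sox18* were highest. The means were 3.64 ± 2.31 (n = 3) and 5.57 ± 5.46 CPM (n = 4), and the log2 fold change of 0.61 (SE 0.76) turned to -0.34 without *Dnmt3a*+/Δ replicate 1.

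**Figure D1:**
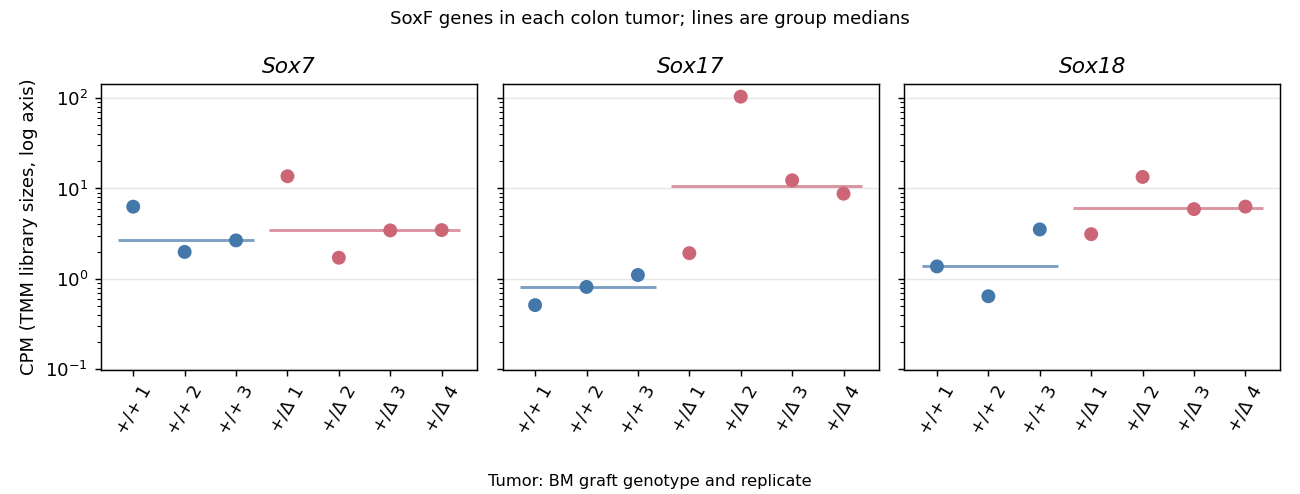
CPM of *Sox7*, *Sox17* and *Sox18* on a log axis, 1 point per tumor, blue for *Dnmt3a*+/+ BM and red for *Dnmt3a*+/Δ BM, with a line at each group's median. *Sox17* reaches 104.1 CPM in *Dnmt3a*+/Δ replicate 2 and stays at or under 1.10 CPM in the *Dnmt3a*+/+ tumors, while the groups overlap for *Sox7*.

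Whether these differences were called depended on the test. Over 15810 genes, edgeR's quasi-likelihood test called 0 when both a log2 fold change beyond 1 in size and a Benjamini-Hochberg adjusted p under 0.05 were required. Its adjusted p was 0.361 for *Sox17*, 0.407 for *Sox18* and 0.813 for *Sox7*. Before adjustment, 922 genes were higher at a p under 0.05 (5.83%), *Sox17* and *Sox18* among them, and 822 were lower (5.20%). DESeq2 called 300 genes, of which 243 were higher with *Dnmt3a*+/Δ BM (1.51% of the genes it gave an adjusted p). *Sox17* was called (DESeq2 adjusted p 0.00361), and *Sox18* (0.0743) and *Sox7* (0.805) were not.

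The *Sox17* call by DESeq2 changed with the tumors and genes fitted, while the log2 fold change stayed positive. Over all genes with a count, *Sox17* was called in 7 of 9 DESeq2 fits, and lost without *Dnmt3a*+/+ replicate 1 (log2 fold change 5.06, adjusted p 0.0577) or replicate 2 (5.32, adjusted p 0.0772). Without *Dnmt3a*+/Δ replicate 2 it was called, at 3.25 with an adjusted p of 0.000454 (0.000697 on the genes kept by edgeR's filter). On the genes kept by edgeR's filter, a choice added after the first fits had been seen, it was called in 8 of 9, with an adjusted p of 0.049 without *Dnmt3a*+/+ replicate 1 and 0.0956 without replicate 2. *Sox18* was called in 3 of 9 fits either way. These were the fit with the experiment as a covariate, where 2.43% of genes were called higher, and those that left out *Dnmt3a*+/+ replicate 3 or *Dnmt3a*+/Δ replicate 1. Fitted as an interaction in edgeR, the log2 fold change in BMT8 minus that in BMT18 was -3.05 (SE 2.352) for *Sox17*, -2.25 (SE 1.17) for *Sox18* and -0.53 (SE 1.59) for *Sox7*. BMT8 holds 1 *Dnmt3a*+/+ tumor, and the lowest adjusted p of this fit over all genes was 1, so a difference between experiments was not detectable.

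The make-up of SoxF transcripts differed among tumors. Levels were divided by the length of each gene's merged exons, which for *Sox17*, with 8 annotated transcripts, can exceed the length of the transcript in use and lower its level. Summed over the 3 genes, SoxF was at 2.86, 1.17 and 3.21 CPM per kb across *Dnmt3a*+/+ replicates 1 to 3, against 6.47, 30.6, 7.27 and 6.77 across *Dnmt3a*+/Δ replicates 1 to 4. *Sox17* made up 3.74%, 14.6% and 7.19% of that sum in the *Dnmt3a*+/+ tumors, and 6.22%, 71.2%, 35.5% and 27.1% in the *Dnmt3a*+/Δ tumors. *Dnmt3a*+/Δ replicate 1 thus lay within the range of the *Dnmt3a*+/+ tumors, and the remaining 3 lay above it. *Sox7* was the most abundant member per length in *Dnmt3a*+/+ replicates 1 and 2 and *Dnmt3a*+/Δ replicate 1, *Sox18* in *Dnmt3a*+/+ replicate 3 and *Dnmt3a*+/Δ replicates 3 and 4, and *Sox17* only in *Dnmt3a*+/Δ replicate 2.

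**Figure D2:**
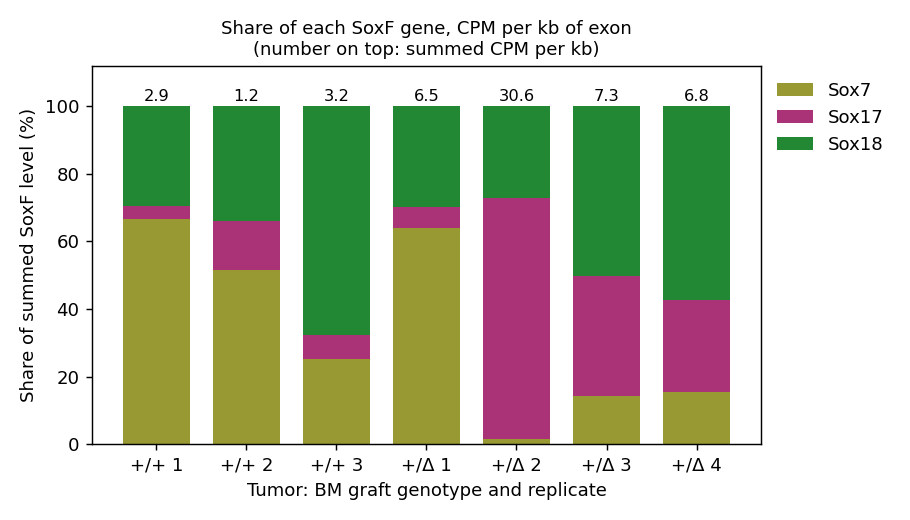
Share of each SoxF gene in the summed SoxF level of each tumor, in percent, from CPM per kb of merged exon, with the summed level above each bar. *Sox17* takes 71.2% in *Dnmt3a*+/Δ replicate 2 and at most 14.6% in the *Dnmt3a*+/+ tumors.

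Most vessel genes also had higher mean levels with *Dnmt3a*+/Δ BM. In bulk tumors, more endothelial cells and more RNA per cell cannot be told apart. Of 20 pan-endothelial genes, 19 had a log2 fold change above 0, against 50.2% of genes tested. In 12 the unadjusted p was under 0.05 (5.83% of all were higher at that p), edgeR called none and DESeq2 called 5 of them (1.51% of all). The median log2 fold change was 1.57, or 1.14 without *Dnmt3a*+/Δ replicate 2, against 0.0025 over all genes tested. *Tek*, the angiopoietin receptor, had the largest (2.80, SE 1.11), which was 0.96 without *Dnmt3a*+/Δ replicate 2, where *Emcn*, an endothelial sialomucin, was the largest (1.55), and *Clec14a*, an endothelial C-type lectin, the smallest (-0.71, SE 0.51). *Pecam1*, which encodes CD31, went from 5.95 ± 1.93 CPM (n = 3) to 17.6 ± 9.57 (n = 4), a log2 fold change of 1.56 (SE 0.46). The log2 fold change of *Sox18* lay within the range of these genes, that of *Sox7* below all but 1 of them, and that of *Sox17* above all of them.

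Set against the mean log2 CPM of the 20 pan-endothelial genes in the same tumor, the 3 SoxF genes differed in spread. *Sox18* had the smallest spread of the 3, at -0.46, -1.35 and 0.14 across *Dnmt3a*+/+ replicates 1 to 3, against 0.05, 0.19, 0.50 and -0.16 across *Dnmt3a*+/Δ replicates 1 to 4 (log2 differences). *Sox17* was at -1.81, -1.03 and -1.50 in the *Dnmt3a*+/+ tumors and at -0.64, 3.14, 1.55 and 0.32 in the *Dnmt3a*+/Δ tumors. Every *Dnmt3a*+/Δ tumor lay above every *Dnmt3a*+/+ tumor, as was so for 24 genes tested (0.152%). That share is partly set by the reference, whose mean log2 CPM was 1.15 with *Dnmt3a*+/+ BM and 2.52 with *Dnmt3a*+/Δ BM. Subtracting it lowers the other genes in the *Dnmt3a*+/Δ tumors, and without it the share was 6.12%.

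The difference between group means on this scale was 2.54 for *Sox17* (-1.44 ± 0.39, n = 3, against 1.09 ± 1.63, n = 4), and 1.85 without *Dnmt3a*+/Δ replicate 2. For *Sox18* it was 0.70 (0.69 without that tumor), against a pooled SD of 0.52, and the groups overlapped. For *Sox7* it was -1.02 (-0.26 without that tumor), with *Dnmt3a*+/Δ tumors both at the top (2.17) and at the bottom (-2.75). These differences use the contrast that chose the genes and were not tested.

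Against its own relatives, *Sox17* lay above all *Dnmt3a*+/+ tumors in 3 of 4 *Dnmt3a*+/Δ tumors. Relative to the mean of *Sox7* and *Sox18*, it was at -2.43, -0.46 and -1.44 across *Dnmt3a*+/+ replicates 1 to 3, against -1.74, 4.42, 1.44 and 0.90 across *Dnmt3a*+/Δ replicates 1 to 4, a difference of 2.697 between group means, or 1.64 without *Dnmt3a*+/Δ replicate 2. Relative to *Sox18* alone, a comparison added after the values were seen, the difference was 1.84, or 1.17 without *Dnmt3a*+/Δ replicate 2, and *Dnmt3a*+/Δ replicate 1 (-0.69) lay below *Dnmt3a*+/+ replicate 2 (0.32).

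**Figure D3:**
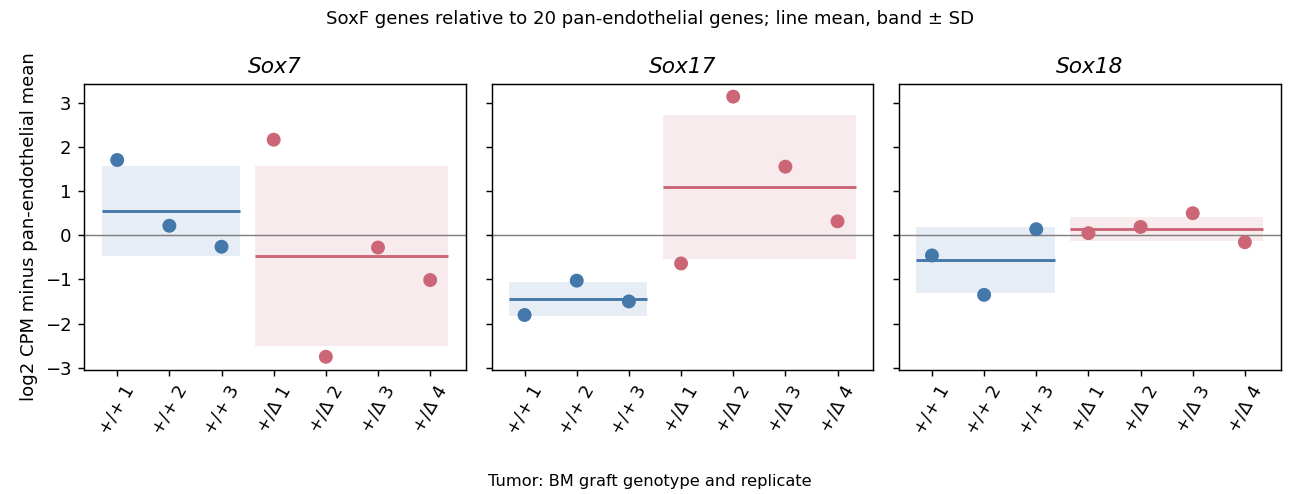
log2 CPM of each SoxF gene minus the mean log2 CPM of 20 pan-endothelial genes in the same tumor, with the mean (line) and SD (band) of the 3 *Dnmt3a*+/+ and 4 *Dnmt3a*+/Δ tumors. *Sox18* lies between -1.35 and 0.50, *Sox17* separates the groups and *Sox7* spreads from -2.75 to 2.17.

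Across the 7 tumors, *Sox17* and *Sox18* varied together and *Sox7* had an r below 0 with both. Pearson's r of log2 CPM was 0.88 for *Sox17* with *Sox18*, -0.40 for *Sox7* with *Sox17* and -0.17 for *Sox7* with *Sox18*. Without *Dnmt3a*+/Δ replicate 2 these were 0.82, -0.07 and 0.17. These values describe 7 tumors that share groups and experiments, with no test. Group means were not removed, so every r given here also carries the difference between groups known when the genes were chosen. In the order of likeness to *Sox17*, *Sox18* held place 685 of 15809 genes.

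Most pan-endothelial genes varied with *Sox17* and *Sox18*, and all but 1 had an r below 0 with *Sox7*. Their median r was 0.89 with *Sox17*, 0.91 with *Sox18* and -0.30 with *Sox7*. With *Sox17*, 15 of 20 had an r over 0.8, against 8.51% of all genes, and with *Sox18* 15 of 20, against 6.47%. Without *Dnmt3a*+/Δ replicate 2 the medians were 0.77, 0.88 and 0.01. Only *Cldn5*, a tight junction gene, had an r above 0 with *Sox7* (0.59). With *Sox17*, the arterial median was 0.52, from *Unc5b* (-0.94) to *Hey1* (0.94). Lists of other cells also had high medians with *Sox17*. They were 0.77 for fibroblast genes and 0.75 for 3 enteric glia and neuron genes, or 0.18 and 0.73 without *Dnmt3a*+/Δ replicate 2.

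Most lymphatic endothelial genes, though not *Prox1*, had an r above 0 with *Sox7*. Their median r was 0.53, or 0.73 without *Dnmt3a*+/Δ replicate 2, with 6 of 7 above 0, against 7571 of 15809 genes. An r over 0.8 was found for 2 of 7, against 3.78% of all genes. Among the 6 were *Reln* (0.85), *Mmrn1* (0.80), *Lyve1* (0.75), a hyaluronan receptor of lymphatic vessels, and *Pdpn* (0.35). *Prox1* had an r of -0.13 with *Sox7* (0.22 without that tumor), against 0.94 with *Sox17* and 0.86 with *Sox18*. With *Sox17* the lymphatic median was -0.39 and with *Sox18* -0.19, and these turned to 0.52 and 0.40 without that tumor.

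*Sox7* also varied with squamous epithelium, a list of 12 genes chosen after the values were seen. Their median r with *Sox7* was 0.82, or 0.89 without *Dnmt3a*+/Δ replicate 2, and all 12 were above 0. The medians were -0.80 with *Sox17* and -0.60 with *Sox18*, or -0.33 and -0.16 without that tumor. The list summed to 27130 CPM in *Dnmt3a*+/+ replicate 1 and 29050 in *Dnmt3a*+/Δ replicate 1, the 2 tumors with most *Sox7*. In *Dnmt3a*+/Δ replicate 2, with least *Sox7*, it summed to 335.2 CPM. In the remaining 4 it was between 4999 and 5993 CPM. Its part in the *Sox7* values was not tested.

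The 5 genes most like each member were named by rank of r, from 0.983 to 0.995. For *Sox7* they were *Nectin4*, an epithelial adhesion gene, *Tshz2*, *Rgs12*, *Def6* and *Ide*. For *Sox17* they were *Pou6f1*, *Tmem44*, *Zfp184*, *Parp1*, a DNA repair enzyme, and *Smad9*, a BMP signal transducer. For *Sox18* they were *Mtap*, *Nav1*, *Shroom1*, *Mast3* and *Erich3*. No pan-endothelial gene was among these 15 genes, though the cut at 5 per member is arbitrary. The nearest pan-endothelial gene was *Tie1* for *Sox18* (place 15 of 15809, r 0.98), *Erg* for *Sox17* (place 75, r 0.97) and *Cldn5* for *Sox7* (place 1759). *T* (brachyury), a mesoderm regulator named after its values were seen, had an r of 0.99 with *Sox17*. It was at 1.10, 1.44 and 1.77 CPM across *Dnmt3a*+/+ replicates 1 to 3, against 1.90, 49.2, 7.43 and 5.08 CPM across *Dnmt3a*+/Δ replicates 1 to 4.

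**Figure D4:**
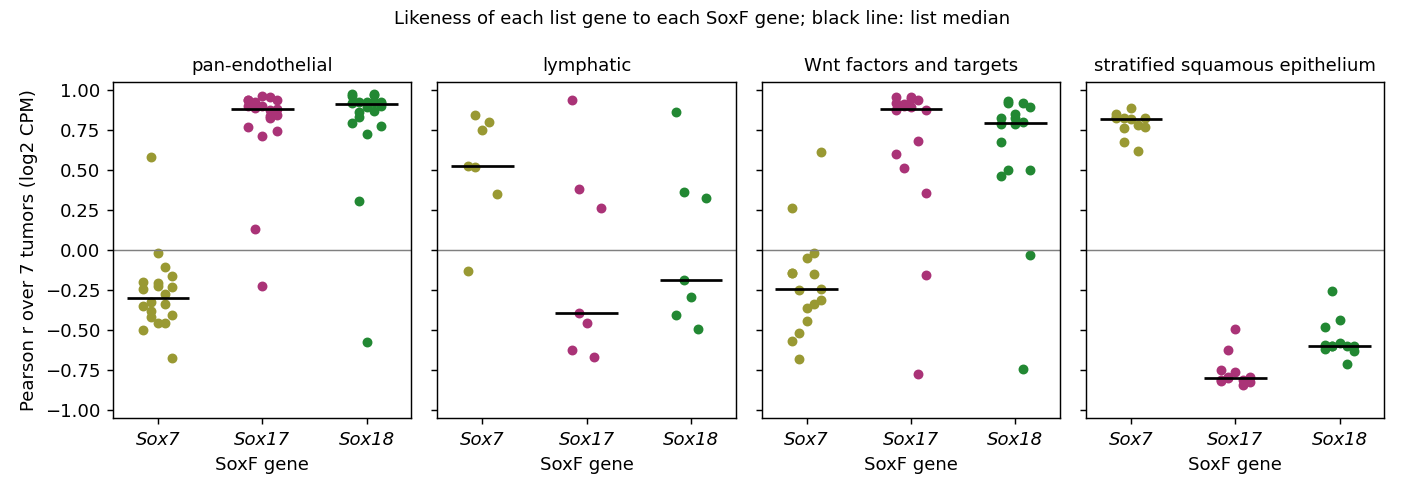
Pearson's r over 7 tumors between each SoxF gene and each gene of 4 lists (points), with the list median (black line). The pan-endothelial medians are -0.30 for *Sox7*, 0.89 for *Sox17* and 0.91 for *Sox18*, and the squamous medians are 0.82, -0.80 and -0.60.

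Described SoxF targets mostly had fold changes in the same direction as *Sox17* and *Sox18*. Of 11 genes, 10 had a log2 fold change above 0 (50.2% of all genes tested) and 6 were higher at an unadjusted p under 0.05 (5.83% of all). edgeR called none and DESeq2 called 2 (1.51% of all), *Prox1* and *Kdr*. Most of this list repeats genes of the vessel lists. *Cldn5*, *Kdr*, *Tek* and *Robo4* are also pan-endothelial genes, *Prox1* is a lymphatic gene, and *Dll4*, *Notch1* and *Efnb2* are arterial genes. The counts are therefore not separate from those of the vessel lists. The median was 1.35, or 0.93 without *Dnmt3a*+/Δ replicate 2. *Lama1*, a laminin chain, had the largest log2 fold change (3.32, SE 1.32), which was 0.92 without *Dnmt3a*+/Δ replicate 2. *Efnb2*, the arterial ephrin, had the smallest (-0.36, SE 0.16). *Prox1*, a target of *Sox18* and also expressed in colon tumor epithelium, was at 32.9, 25.7 and 26.6 CPM across *Dnmt3a*+/+ replicates 1 to 3, against 60.3, 177.2, 127.9 and 93.3 CPM across *Dnmt3a*+/Δ replicates 1 to 4. Its log2 fold change was 2.02 (SE 0.36), with an adjusted p of 0.361 in edgeR and 0.000113 in DESeq2.

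Among vessel subtypes, all 7 lymphatic genes had a log2 fold change above 0 (50.2% of all genes tested). Their median was 0.47 (0.79 without *Dnmt3a*+/Δ replicate 2), from *Prox1* (2.02) to *Ccl21a* (0.11). In edgeR 2 were higher at an unadjusted p under 0.05 (5.83% of all), and DESeq2 called 1 (1.51% of all). Of 11 arterial genes tested, 7 were above 0, with a median of 0.55 (0.20 without that tumor). The arterial genes ranged from the Notch effector *Hey1* (2.701, SE 0.80, and 1.79 without that tumor) to the netrin receptor *Unc5b* (-0.77, SE 0.24). At that p, 2 were higher and 1 lower (5.20% of all), and DESeq2 called 1. With *Dnmt3a*+/+ BM, *Efnb2* (73.8 CPM), *Unc5b* (88.5) and *Notch1* (37.8) had means above that of *Pecam1* (5.95). The cells that hold these genes were not tested. All 5 venous genes were above 0, with a median of 0.85 (0.36 without *Dnmt3a*+/Δ replicate 2), from *Aplnr* (2.73) to *Nr2f2* (0.08). None had an unadjusted p under 0.05. Of 15 other endothelial transcription factors tested, 11 were above 0, with a median of 0.59 (0.29 without *Dnmt3a*+/Δ replicate 2). At an unadjusted p under 0.05, 4 were higher and 1 lower, and DESeq2 called 3. *Foxc2*, a lymphatic valve regulator, was the largest (2.64, SE 0.60) and *Klf4*, also a gene of differentiated epithelium, the smallest (-0.99, SE 0.41).

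The endoderm program had no common direction. Of 11 endoderm genes tested, 7 had a log2 fold change above 0 (50.2% of all genes tested). The median was 0.06 (0.07 without *Dnmt3a*+/Δ replicate 2). Only *Afp*, at up to 2.14 CPM, had an unadjusted p under 0.05 (log2 fold change 2.43, SE 0.92). *Foxa2*, an endoderm pioneer factor, went from 10.5 ± 5.35 (n = 3) to 16.2 ± 7.12 CPM (n = 4), with an adjusted p of 0.64 in edgeR. *Hhex* was the smallest (-0.73, SE 0.34).

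Most Wnt factors and targets had higher levels with *Dnmt3a*+/Δ BM and varied with *Sox17*. Of 16 genes, 14 had a log2 fold change above 0 (50.2% of all genes tested). At an unadjusted p under 0.05, 10 were higher (5.83% of all) and 1 lower (5.20%). edgeR called none and DESeq2 called 5 as higher (1.51% of all). The median was 0.92, or 0.76 without *Dnmt3a*+/Δ replicate 2. *Lef1*, a β-catenin partner, had the largest log2 fold change (2.33, SE 0.41) and *Tcf7l1*, a repressor of Wnt targets, the smallest (-0.73, SE 0.31). *Axin2*, a feedback inhibitor, was at 60.6, 77.4 and 63.4 CPM across *Dnmt3a*+/+ replicates 1 to 3, against 86.6, 202.6, 169.3 and 134.1 CPM across *Dnmt3a*+/Δ replicates 1 to 4. With *Sox17*, the list's median r was 0.89, or 0.84 without *Dnmt3a*+/Δ replicate 2, and 10 of 16 were over 0.8, against 8.51% of all genes. With *Sox18* the median was 0.80 and with *Sox7* -0.25. Because r was taken over both groups, the likeness to *Sox17* and the higher levels are not separate results.

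**Figure D5:**
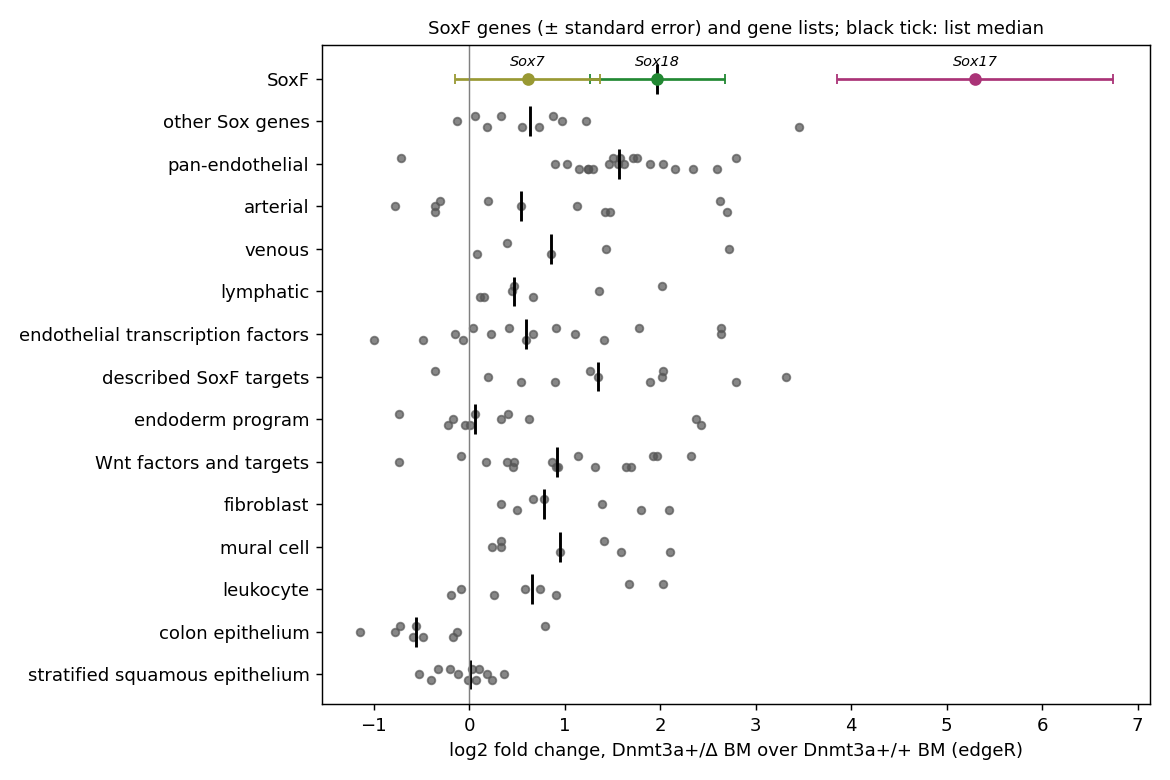
edgeR log2 fold change, *Dnmt3a*+/Δ BM over *Dnmt3a*+/+ BM, of the SoxF genes (with SE) and of each tested gene of 14 lists (grey), with list medians as black ticks. *Sox17* (5.30) lies to the right of every list gene, *Sox18* (1.97) among the pan-endothelial genes and *Sox7* (0.61) below their median.

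For lists of other cells, median log2 fold changes were 0.79 for fibroblast genes, 0.95 for mural cell genes, 0.66 for leukocyte genes, 1.15 for 3 enteric glia and neuron genes and 0.08 for smooth muscle genes. They were -0.56 for colon epithelium, -0.39 for fetal-like epithelium and 0.01 for squamous epithelium. Without *Dnmt3a*+/Δ replicate 2, these medians were, in that order, 0.20, 0.56, 0.09, 1.10 and 0.30, then -0.43, -0.06 and 0.40. The part of these cells in the SoxF values was not tested.

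Among 10 other *Sox* genes tested, 9 had a log2 fold change above 0 (50.2% of all genes tested). Their median was 0.64 (0.59 without *Dnmt3a*+/Δ replicate 2). Only *Sox11*, a SoxC gene of progenitor cells, had an unadjusted p under 0.05 (log2 fold change 3.46, SE 0.87; adjusted p 0.361 in edgeR and 0.000745 in DESeq2). It was at 1.08, 0.406 and 0.398 CPM across *Dnmt3a*+/+ replicates 1 to 3, against 0.873, 9.27, 8.33 and 9.03 CPM across *Dnmt3a*+/Δ replicates 1 to 4, so *Dnmt3a*+/Δ replicate 1 lay within the *Dnmt3a*+/+ range. Per kb of merged exon, the colon epithelial genes *Sox4* and *Sox9* were the most abundant, with means over 7 tumors of 28.8 and 20.5 CPM per kb. *Sox21* (12.8), *Sox2* (10.1), *Sox13* (6.55) and *Sox15* (4.65) followed. The order of the SoxF genes differed between groups. With *Dnmt3a*+/+ BM, *Sox18* (1.14 ± 0.92 CPM per kb, n = 3) and *Sox7* (1.10 ± 0.70) lay above *Sox17* (0.169 ± 0.062). With *Dnmt3a*+/Δ BM, *Sox17* was at 6.66 ± 10.2 (n = 4), *Sox18* at 4.44 ± 2.71 and *Sox7* at 1.69 ± 1.66. Without replicate 2 of that group, *Sox17* (1.61) lay below *Sox18* (3.15) and *Sox7* (2.08), with SDs of 1.11, 1.07 and 1.79. *Sox2* and *Sox15*, genes of stratified epithelium, varied with *Sox7* (r 0.68 and 0.73) and had 1 and 0 counts in *Dnmt3a*+/Δ replicate 2. *Sox5* (log2 fold change 0.97), *Sox6* (0.88) and *Sox12* (1.23) were each under 6.5 CPM in every tumor, and 6 more *Sox* genes had too few counts to be tested.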

How the data were processed

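RNA was measured in 7 whole colon tumors, from 3 recipients of *Dnmt3a*+/+ BM and 4 of *Dnmt3a*+/Δ BM. The authors trimmed reads with Trimmomatic, aligned them to mm10 with STAR and quantified genes with RSEM. The deposited values are those estimated counts per gene, as whole numbers and without normalization. The annotation release is not given in the sources used here. Symbols and GENCODE M21 positions were matched by Ensembl identifier, and genes without a symbol held 0.104% of counts. Sequences of the 3 genes are not reported here.

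The comparison of groups used the quasi-likelihood test of edgeR 4.0.16 (R 4.3.3) without covariates, on genes that passed filterByExpr, with TMM scaling and p-values adjusted by Benjamini-Hochberg. CPM use TMM library sizes and log2 CPM a prior count of 2. DESeq2 1.42.0 was the alternative tool. It was first run on all genes with a count, and then, after those results had been seen, on the genes kept by edgeR's filter; the first stands in the lists' counts, and both are reported for the 3 genes. The named genes were the 3 members, the 5 genes with the highest r to each, the largest and smallest log2 fold change of each list, list genes with a described role, and the tested *Sox* genes. Members and the 17 lists were chosen with earlier results of these data known, and the squamous list and *T* after seeing values.

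In simulated data, 200 of 15810 genes were changed by fixed folds. With the dispersion that edgeR estimated per gene in these tumors, edgeR recovered 137 with 4 false calls and DESeq2 recovered 162 with 62. With a dispersion of 0.05 for every gene, edgeR recovered 197 and DESeq2 199, each with 0 false calls. Simulated counts held no outlying tumor and no difference between experiments. They therefore cannot decide between the tools for the *Sox17* call. The p-values measure the spread between tumors, which the study's text gives as 1 per mouse.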

Additional observations from a re-analysis of the deposited data

Results flagged for a closer look

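Of 34 values examined over the 4 *Dnmt3a*+/Δ tumors, 6 had 1 tumor far from the other 3 (gap over range above Dixon's 95% critical value). Chance would give about 1.7 for independent normal values. The gene values were CPM of genes chosen with results known, so that count is no baseline for them. In log2 CPM, replicates 1 to 4 were at 0.976, 6.703, 3.629 and 3.138 for *Sox17*, and at 3.778, 0.813, 1.798 and 1.81 for *Sox7*. *Sox17* was at 104.1 CPM in *Dnmt3a*+/Δ replicate 2, and *Sox7* at 13.7 CPM in replicate 1. *Sox6* was low in replicate 4, at 2.27 CPM, and *Sox11* low in replicate 1, at 0.873 CPM. In replicate 2 the mean log2 CPM was 7.1 for the fetal-like epithelium list and 3.54 for the mural cell list.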

How the results depend on the processing

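The edgeR alternatives (size factors of DESeq2, library size only, no filter, experiment as a covariate, BMT18 alone, replicate block, each tumor left out) gave log2 fold changes of 3.28 to 6.33 for *Sox17* and 1.51 to 3.07 for *Sox18*, and called 0 genes. The range over tumors left out was 3.28 to 5.736 for *Sox17*. *Sox7* turned to -0.335 without *Dnmt3a*+/Δ replicate 1 (-0.335 in DESeq2 and -0.33 on filtered genes), and ranged to 1.26 in edgeR and 1.27 in DESeq2. Library size alone moved the median of all genes from 0.0025 to 0.2125, and *Sox7*, *Sox17* and *Sox18* to 0.78, 5.657 and 2.298.

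The replicates numbered 1 deviated together (r 0.57) and those numbered 2 and 3 did not (0.07 and -0.04), so the numbers were not taken as pairs. With the replicate block, log2 fold changes were 0.43, 4.14 and 2.00, and 0 genes were called.

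DESeq2 called 300 genes, and 485 with the experiment as a covariate. Leaving out each tumor gave 63 to 697. On the filtered genes, added after these were seen, the counts were 300, 445 and 51 to 637. *Sox17* was at 5.31 in DESeq2 and 4.996 with the experiment (5.32 and 5.001 on filtered genes). Leaving out each tumor, DESeq2 gave *Sox17* 3.25 to 5.70 (filtered 3.26 to 5.71) and *Sox18* 1.49 to 2.87 (filtered 1.49 to 2.88). *Sox18* with the experiment was 2.09 in both. The adjusted p of *Sox17* was between 3.15e-09 and 0.0772 over 9 DESeq2 fits and between 6.52e-09 and 0.0956 on filtered genes. The filter moved 1 *Sox17* call, without *Dnmt3a*+/+ replicate 1, and the cause was not tested. Relative levels moved by less than 1 SD in every alternative run. With 3 and 4 tumors, 1 tumor carried much of the *Sox17* level, and no SoxF gene had fewer than 19 counts in a tumor.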
